A study of Sus scrofa domesticus with 6 samples.

Results

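The cells described here are 684 keratin-positive, surfactant-low cells of a reperfused pig lung graft. They were chosen by 9 genes and a depth limit. Each had at least 1000 UMIs (unique molecular identifiers, sequence tags by which captured transcripts are counted), at least 4 UMIs of the simple keratins KRT8 and KRT18 together, and SFTPC, the surfactant protein C transcript, below 5% of its UMIs. Secretory cells were kept out by SCGB1A1 below 1% of UMIs, alveolar type 1 cells by fewer than 2 UMIs of AGER and RTKN2, ciliated cells by fewer than 2 UMIs of FOXJ1 and TPPP3, and immune cells by 0 UMIs of PTPRC, which encodes CD45. The 684 cells were 5.45% (exact binomial 95% interval 5.06 to 5.86%) of the 12551 cells with that depth in their library, which held 15817 of the 43322 cells of the series. They were set against 6960 SFTPC-high cells of the same library (1000 or more UMIs, SFTPC at 5% or more, PTPRC 0).

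The library came from cells sorted as CD45- and viable from 1 transplanted lung of a domestic pig, after an orthotopic single-lung allograft with 24 h of cold ischemia and 8 h of reperfusion (IRI, ischemia-reperfusion injury). The other graft libraries were 2 of CD45+ cells, and 3 control libraries held unsorted cells of the donors' right lungs, taken after retrograde perfusion. The labels give no age, sex or genotype, and do not say which pig each library came from. Because members and SFTPC-high cells share 1 library, no replicate exists for either and no test between them was possible. Levels are UMIs summed over the cells of a group and scaled to that group's total (CPM), and ratios carry exact 95% intervals that cover counting error only.

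Alveolar type 2 (AT2) cells make surfactant, store it in lamellar bodies and act as the stem cells of the alveolus. After lung injury in mice and humans some of them lose surfactant transcripts and gain KRT8, KRT18, CLDN4 and related genes on the way to flat alveolar type 1 (AT1) cells, a state called transitional. High keratin with low surfactant is, however, also the ordinary state of airway epithelium, in which basal cells are the stem cells, secretory cells release mucosal proteins and ciliated cells move mucus. The comparison below asks whether these cells carry the genes of injured or transitional alveolar cells.

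EPCAM, the epithelial adhesion protein that the rule did not use, was at 2519 CPM in members and 3070 CPM in SFTPC-high cells. It stood at 195 CPM in 132 endothelial cells and 87.3 CPM in 440 immune cells of the same library, which should lack it. After every cell was thinned to 1000 UMIs, 80.0% of members and 87.7% of SFTPC-high cells still held an EPCAM UMI, against 17.4% of endothelial and 8.18% of immune cells (unthinned median depths 2458, 2424.5, 1621.5 and 2224.5 UMIs). Members were therefore epithelial by this marker. The alveolar part of the working label held less well. SFTPC made up a median of 0.879% of a member's UMIs (quartiles 0.438 and 3.08%), against 12.3% in SFTPC-high cells. Endothelial cells, which should lack it, held a median of 0.609% and immune cells 0.454%, the level of free SFTPC RNA in this library.

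The SFTPC share of cells meeting every other limit had 2 modes. Of the members, 355 lay below 1%, only 27 lay between 2.5 and 3%, and 107 lay between 4 and 5%, next to 111 SFTPC-high cells between 5 and 6%. The main mode of SFTPC-high cells held 1213 cells between 10 and 15%. The 5% limit thus ran through the lower flank of the SFTPC-high mode: the 5 members nearest to it had 4.95 to 4.99% SFTPC and the 5 nearest cells beyond it 5.01 to 5.06%. The keratin limit was of the same kind, with 117 cells at 3 UMIs just outside and 118 cells at 4 UMIs just inside.

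**Figure D1:**
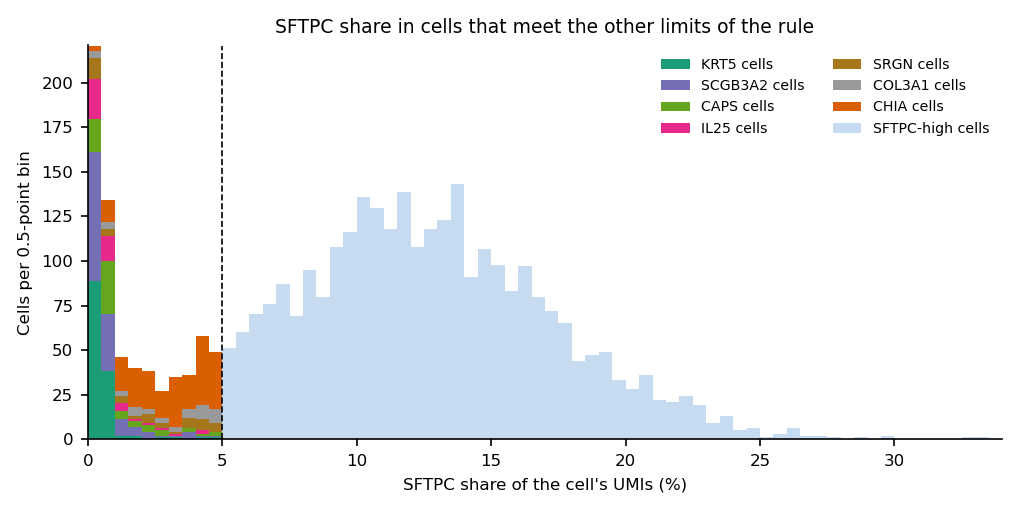
Cells that met all limits other than SFTPC, by the SFTPC share of their UMIs (x axis, %, bins of 0.5 points; y axis, cells per bin), stacked by sub-cluster for members and in pale blue for SFTPC-high cells; the dashed line marks 5%. The KRT5, SCGB3A2, CAPS and IL25 cells pile up under 1%, while the CHIA cells fill the range from 1 to 5% and run into the SFTPC-high mode.

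Clustered alone, the members fell into 7 sub-clusters, each called here by a leading gene. CHIA cells were the most numerous (210 cells, 30.7%), followed by KRT5 cells (135 cells, 19.7%), SCGB3A2 cells (130 cells, 19.0%), CAPS cells (69 cells, 10.1%), SRGN cells (48 cells, 7.02%), IL25 cells (46 cells, 6.73%) and COL3A1 cells (46 cells, 6.73%). The median SFTPC share was 0.411% in KRT5 cells, 0.468% in SCGB3A2 cells, 0.537% in IL25 cells and 0.630% in CAPS cells. By their medians these 4 sub-clusters, 380 cells or 55.6% of members, thus sat near the SFTPC level of endothelial and immune cells. At the median no SFTPC of their own was detectable above that background. Single cells lay higher, with 95th percentiles of 1.36% in KRT5, 3.06% in SCGB3A2, 3.33% in IL25 and 3.89% in CAPS cells. The 95th percentile was 1.13% in immune and 7.69% in endothelial cells. CHIA cells had a median of 3.27%, COL3A1 cells 3.05% and SRGN cells 2.12%. Of the 355 members under 1% SFTPC, 15 were CHIA cells, and of the 205 members between 2.5 and 5%, 133 were.

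**Figure D2:**
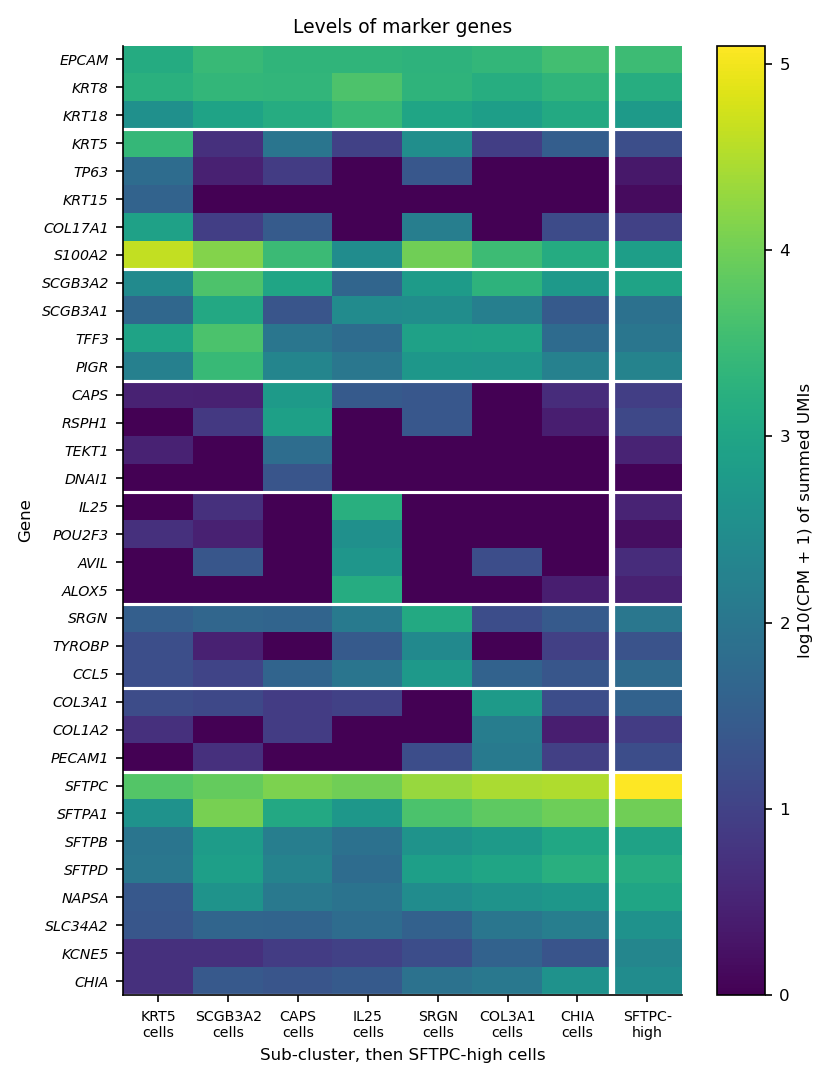
Levels of marker genes (rows) in the 7 sub-clusters of members and, to the right of the white line, in SFTPC-high cells, as log10 of CPM plus 1 of summed UMIs. EPCAM, KRT8 and KRT18 are present in every column, while markers such as TP63, CAPS, IL25, SRGN and COL3A1 are highest in 1 sub-cluster each. SFTPB, SFTPD and NAPSA are higher in the CHIA column than in the other 6.

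The KRT5 cells were basal-like. Of the 8 basal markers listed, 6 were at least 2-fold higher in them than in other members (and at 10 CPM or more with at least 3 UMIs): KRT5, KRT15, TP63, NGFR, DLK2 and SERPINB5. Of the 7 basal markers tested (a mean of 10 CPM or more) 6 were, against 870 of all 7580 genes tested in this way (11.5%). These counts describe the clusters and are no test, since the clustering used the same genes. KRT5, the type II keratin of basal cells, was found in 104 of 135 cells at 2493 CPM (2355 to 2636), against 16.1 CPM in SFTPC-high cells. TP63, the basal transcription factor, was found in 25 cells at 62.7 CPM, against 1.10 CPM in SFTPC-high cells. COL17A1, a hemidesmosome collagen that anchors basal cells, reached 809 CPM, against 8.63 CPM. S100A2, a calcium-binding protein of basal epithelium, made up 43088 CPM, against 707 CPM. S100A2 was lower in the other sub-clusters, at 300 to 14086 CPM, and still above SFTPC-high cells in each but the IL25 cells. They also held the chemokine CCL26 at 382 CPM and the secreted defence protein BPIFA1, a secretory marker, at 1162 CPM, against 1.57 and 26.1 CPM in SFTPC-high cells. Of 24 cell-cycle genes listed, 8 were 2-fold higher than in other members (6 of the 10 with a mean of 10 CPM or more), among them CCND1 (960 CPM, against 106 CPM in SFTPC-high cells) and the replication helicase subunit MCM2 (60.6 against 3.96 CPM).

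The SCGB3A2 cells were secretory-like. Outside the rule gene SCGB1A1, 4 of 10 listed secretory markers were at least 2-fold above other members, SCGB3A1, SCGB3A2, TFF3 and BPIFB1. Of the 7 tested 4 were, against 483 of all 7421 genes tested (6.51%). SCGB3A2, a secretoglobin of airway secretory cells, reached 4762 CPM, against 900 CPM in SFTPC-high cells, and was found in 102 of 130 cells. TFF3, a mucosal repair peptide, reached 4440 CPM, against 102 CPM, and PIGR, which carries antibodies across the epithelium, 2689 CPM, against 190 CPM. SCGB1A1 was at 4303 CPM here, against 1239 CPM, under the 1% ceiling that the rule set for each cell. FOXI1, the transcription factor of ionocytes, was among the 10 leading genes but came from 4 cells only, 1 of which held 15 of its 31 UMIs.

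SFTPA1, the surfactant protein A transcript, stood at 11338 CPM (11045 to 11638) in the SCGB3A2 cells, against 9662 CPM (9619 to 9704) in SFTPC-high cells. After thinning, 93.1% of SCGB3A2 cells and 98.2% of SFTPC-high cells held a SFTPA1 UMI, against 23.4% of immune and 29.5% of endothelial cells. These cells had 145 SFTPA1 UMIs for every 100 of SFTPC, while SFTPC-high cells had 7.69, KRT5 cells 7.37, and immune cells 6.23. The KRT5 and immune ratios lay near that of the SFTPC-high cells, and the ratio of the SCGB3A2 cells lay far above all of them. SFTPB was at 663 CPM in SCGB3A2 cells and 870 CPM in SFTPC-high cells. The AT2 transporter SLC34A2 was at 44.1 CPM in SCGB3A2 cells and 392 CPM in SFTPC-high cells.

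The CAPS cells were ciliated-like. Outside FOXJ1 and TPPP3, which the rule capped at fewer than 2 UMIs together, all 13 listed ciliated markers were at least 2-fold higher in them than in other members, as were 2210 of all 7987 genes tested (27.7%). FOXJ1 was found in 11 of the 69 cells and in 23 of the 210 CHIA cells, with 1 UMI each. CAPS, a calcium-binding protein of ciliated cells, reached 600 CPM, against 8.01 CPM in SFTPC-high cells in 43 of the 69 cells. The ciliary axoneme protein RSPH1 reached 808 CPM. These were the shallowest members, with a median of 1593 UMIs. In this sub-cluster the lists differed, to be read against 27.7% of all genes higher. Above that were 8 of 11 p53 targets tested (72.7%), 9 of 21 oxidative stress genes (42.9%) and 7 of 17 heat shock genes (41.2%). Nearer to it were 8 of 23 keratin and junction genes (34.8%) and 9 of 29 hypoxia genes (31.0%). Other lists lay below it. The endoplasmic reticulum stress, inflammatory, and interferon and MHC lists each had 1 of 21 higher (4.76%), and immediate-early genes 1 of 22 (4.55%). Also below were 2 of 17 apoptosis regulators (11.8%), 5 of 31 TGF-beta, YAP and wound genes (16.1%) and 6 of 30 transitional genes. CDKN1A, the cell-cycle inhibitor induced by p53, stood at 629 CPM, against 112 CPM in SFTPC-high cells, BAG3, a co-chaperone, at 1737 against 422 CPM, and HSPA6, a stress-inducible chaperone, at 858 against 140 CPM. The ciliated-like cells also had the highest level of LGALS3 (galectin 3), 3374 against 278 CPM.

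The IL25 cells had a median of 14 KRT8 and KRT18 UMIs per cell, against 8 over all members, 7 in the SFTPC-high cells that met every other limit and 5 in all SFTPC-high cells. Keratin was used by the rule, so this is a description. Compared with other members, 2037 of 7828 genes tested (26.0%) were 2-fold higher in them. No marker list fixed for this work fits them, so they stay unnamed; the genes that follow were picked by their level here. IL25, a cytokine that starts type 2 immune responses, was found in 37 of 46 cells at 1675 CPM (1445 to 1931), against 2.24 CPM in SFTPC-high cells. The leukotriene enzymes were present together: ALOX5 at 1455 CPM in 43 of 46 cells, its partner ALOX5AP at 3024 CPM and LTC4S at 1014 CPM, against 1.91, 9.82 and 4.53 CPM in SFTPC-high cells. PTGS1, a prostaglandin synthase, was at 864 CPM and HPGD, which inactivates prostaglandins, at 1728 CPM, against 2.00 and 2.43 CPM. GNG13, a G protein subunit of taste signalling, reached 1411 CPM, and IL17RB, the IL-25 receptor chain, 882 CPM, against 0.954 and 1.91 CPM. POU2F3, which in mice is required for tuft cells, was found in 20 of 46 cells at 361 CPM, AVIL, an actin-binding tuft cell gene, in 24 cells at 485 CPM, and the taste channel TRPM5 in 4 cells at 35.3 CPM, against 0.525, 3.53 and 0.0954 CPM in SFTPC-high cells. SH2D7 was found in 26 cells at 485 CPM and SPIB in 18 cells at 317 CPM, against 0 and 0.502 CPM in other members. Some other genes reported in tuft cells were scarce: DCLK1 and HPGDS had 0 UMIs in the 46 cells, and CHAT and GFI1B were each found in 2 cells. IL25 was not found in KRT5, CAPS, SRGN, COL3A1 or CHIA cells. Of 10 B-cell and plasma-cell markers, 3 were also higher here (3 of the 5 tested), among them CD79B at 414 CPM. None of the 46 cells was among the top 6% of doublet scores, and 67.4% held 2 or more UMIs of other cell types' markers. The doublet scores come from a tool that was taken not to have worked on this library, so they do not exclude doublets.

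The remaining 94 cells (13.7%), summed by sub-cluster, mixed the transcripts of unlike cells. Of the markers listed, SRGN cells held 6 of 7 neutrophil, 5 of 13 T and NK, 4 of 15 macrophage and 4 of 10 B and plasma markers at 2-fold or more above other members. Of the markers tested these were 6 of 6, 5 of 5, 4 of 6 and 4 of 6, against 1064 of all 7601 genes tested (14.0%). PTPRC was at 0 by the rule and EPCAM at 2022 CPM. Single cells carried much of these marker levels: 1 cell held 61 of the 70 JCHAIN UMIs and 1 held 104 of the 149 ARG1 UMIs. COL3A1 cells held 10 of 12 fibroblast, 10 of 15 endothelial and 4 of 5 erythroid markers listed at 2-fold or more above other members. Of the markers tested these were 10 of 10, 10 of 10 and 4 of 4, against 969 of all 7449 genes tested (13.0%). EPCAM was at 2354 CPM, and 1 of their 46 cells carried 3469 of the 3857 UMIs of the globin gene HBB. COL3A1 itself was found in 12 of the 46 cells, and 1 cell held 36 of its 79 UMIs. Clustered without the rule genes, 15 of the 46 joined the CHIA cells and 13 the SCGB3A2 cells. The mixture was thus not shown for each cell. Of SRGN cells 27.1% and of COL3A1 cells 17.4% were among the top 6% of doublet scores in the library, against 5.56% of all members, 11.6% of CAPS cells, 3.08% of SCGB3A2 cells, 1.48% of KRT5 cells and 1.43% of CHIA cells. The tool behind these scores called no cell of the library and was taken not to have worked, so the scores cannot tell which cells are doublets. The part of doublets in these levels was not tested.

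Summed over all 684 cells, members stood at least 2-fold above SFTPC-high cells at 794 of 7241 genes tested (11.0%) and at least 2-fold below at 182 (2.51%). Genes were tested where the mean of both groups was 10 CPM or more. The median gene was 0.26 higher on the log2 scale in members, and SFTPC took 16417 CPM of members and 125563 CPM of SFTPC-high cells. With that median subtracted, 536 genes were higher and 340 lower, so that 61.2% rather than 81.4% of the calls were on the higher side. The 15 genes with the largest ratios included GNG13 (77.5 against 0.954 CPM, log2 ratio 6.34, 5.67 to 7.09), CCL26 (5.92), ALOX5 (5.37), IL25 (5.35), KRT5 (624 against 16.1 CPM, 5.28, 5.11 to 5.46), KRT17 (5.20), COL17A1 (4.59) and S100A2 (14872 against 707 CPM, 4.40, 4.37 to 4.42). IL25 cells held 160 of the 163 GNG13 UMIs of all members and 165 of the 166 ALOX5 UMIs, and KRT5 cells held 189 of 201 CCL26 and 1233 of 1313 KRT5 UMIs. In members other than the CHIA cells described below, 1176 of 7365 genes (16.0%) were higher and 374 (5.08%) lower. Other large ratios were spread over several sub-clusters. Of the 285 UMIs of the steroid dehydrogenase HSD17B2, KRT5 cells held 141 and SCGB3A2 cells 115, and of the 31290 UMIs of S100A2, KRT5 cells held 21314 and SCGB3A2 cells 7034.

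Of the 794 genes higher in members, 548 were also 2-fold higher with at least 3 UMIs in KRT5 cells, 458 in SCGB3A2 cells, 432 in CAPS cells, 402 in IL25 cells, 391 in SRGN cells, 242 in COL3A1 cells and 155 (19.5%) in CHIA cells. Of 7233 genes outside the rule, 265 lay above SFTPC-high cells in all 7 sub-clusters and 201 below. Of these, 3 were 2-fold higher in all 7: MARCKS, an actin-regulating membrane protein (35.3 to 741 CPM by sub-cluster, against 17.1 CPM in SFTPC-high cells), NSMCE1, a subunit of the SMC5/6 complex (38.6 to 122 against 17.4 CPM) and ITPRIPL1 (16.8 to 79.3 against 7.87 CPM). A further 9 were 2-fold lower in all 7. They included the aspartic protease NAPSA of AT2 cells (24.3 to 497 CPM by sub-cluster, against 1011 CPM), the phosphate transporter SLC34A2 (22.2 to 151 against 392 CPM), the fatty acid carrier FABP3 (22.2 to 90.7 against 271 CPM) and the potassium channel subunit KCNE5 (4.01 to 38.3 against 219 CPM). Both sets were chosen after their values were seen.

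Of the 12 AT2 genes tested outside the rule, none was 2-fold higher and 5 were lower in members (41.7% lower, against 2.51% of all genes). The median log2 ratio was -0.76, against 0.26 over all genes. The 5 were SLC34A2 (73.2 against 392 CPM), LPCAT1, which builds surfactant lipid (20.4 against 81.9 CPM), NAPSA (302 against 1011 CPM), ETV5 and the lamellar body transporter ABCA3 (66.1 against 140 CPM). SFTPA1, SFTPB and SFTPD lay between, at log2 ratios of -0.61, -0.63 and -0.89. Of 12 AT1 genes tested, 6 were higher (median 0.97), but AGER and RTKN2 were capped by the rule. Among the 6, the water channels AQP5 and AQP4 are also airway genes: AQP5 was at 295 CPM in the basal-like KRT5 cells, 3.36 CPM in CHIA cells and 8.06 CPM in SFTPC-high cells, and AQP4 was at 465 CPM in the ciliated-like CAPS cells, 1.68 CPM in CHIA cells and 5.53 CPM in SFTPC-high cells. CYP4B1 reached 1994 CPM in CAPS cells and 1007 CPM in SCGB3A2 cells, and stood at 47.0 CPM in CHIA cells and 68.5 CPM in SFTPC-high cells. CAV1, a defining AT1 gene, had 0 UMIs in CHIA cells, which allows up to 5.04 CPM, and 0.668 CPM in SFTPC-high cells.

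Of the 30 transitional-epithelium genes tested outside the rule, 12 were 2-fold higher and none lower in members (median 0.66). That is 40.0% higher, against 11.0% of all genes. Several were highest in the basal-like cells. KRT19 was at 1536 CPM in KRT5 cells, 124 CPM in CHIA cells and 75.2 CPM in SFTPC-high cells. KRT17 was at 1086 CPM in KRT5 cells, 15.1 CPM in CHIA cells and 7.63 CPM in SFTPC-high cells. SFN, a 14-3-3 protein, was at 518 CPM in KRT5 cells, 6.72 CPM in CHIA cells and 4.15 CPM in SFTPC-high cells. LGALS3 and AREG, an EGF-receptor ligand, were lower in CHIA cells than in SFTPC-high cells, at 158 against 278 CPM and 1.68 against 14.8 CPM. CLDN4, a tight-junction claudin, stood above SFTPC-high cells in every sub-cluster, at 1840 to 3803 CPM against 1429 CPM. The same list counted in CHIA cells gave 4 higher genes of 27, described below.

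The counts in members that follow stand against 11.0% of all genes higher and 2.51% lower. Of 17 heat shock genes none was 2-fold higher or lower in members, nor was any of 22 immediate-early genes. FOS stood at 5091 against 3997 CPM and ATF3 at 633 against 421 CPM. Of 22 genes of endoplasmic reticulum (ER) stress and the integrated stress response, none was higher and TRIB3 and SESN2 were lower. That sum held opposite moves: the list's genes summed to 17525 CPM in CHIA cells and 8876 CPM in the other members, against 12062 CPM in SFTPC-high cells, and HSPA5, TRIB3, SESN2 and ATF5 were 2-fold lower in the other members. Of 10 p53 targets, none was higher and POLH was lower, with CDKN1A at 153 against 112 CPM and GDF15 at 51.3 against 49.2 CPM. Of 22 inflammatory genes, 2 were higher (LCN2, 1308 against 308 CPM, and CXCL10) and 2 lower (CSF2 and CSF3), with NFKBIA, the inhibitor induced by NF-kB, at 9211 against 9087 CPM. The inflammatory calls in members were 9.09% of the list each way. In members other than CHIA cells, 4 of 23 were higher (IL1A, PTGS2, LCN2 and CXCL10) and 5 lower (CXCL2, CCL2, CSF3, CSF2 and SOD2). Those are 17.4% higher and 21.7% lower, against 16.0% and 5.08% of all genes in that comparison. The interferon and MHC list had 9 of 20 genes higher and none lower (median 0.94), among them MX1 (74.1 against 27.8 CPM), IFI6 (107 against 37.7 CPM) and the immunoproteasome subunit PSMB9 (156 against 51.0 CPM). IFI6 was at 846 CPM in IL25 cells and 21.8 CPM in CHIA cells. Of 31 TGF-beta, YAP and wound genes, 10 were higher in members (32.3%), among them CCN2, which was at 966 CPM in COL3A1 cells and 18.5 CPM in CHIA cells, and VIM, at 579 CPM in CAPS cells and 25.2 CPM in CHIA cells, against 72.7 and 60.1 CPM in SFTPC-high cells.

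**Figure D3:**
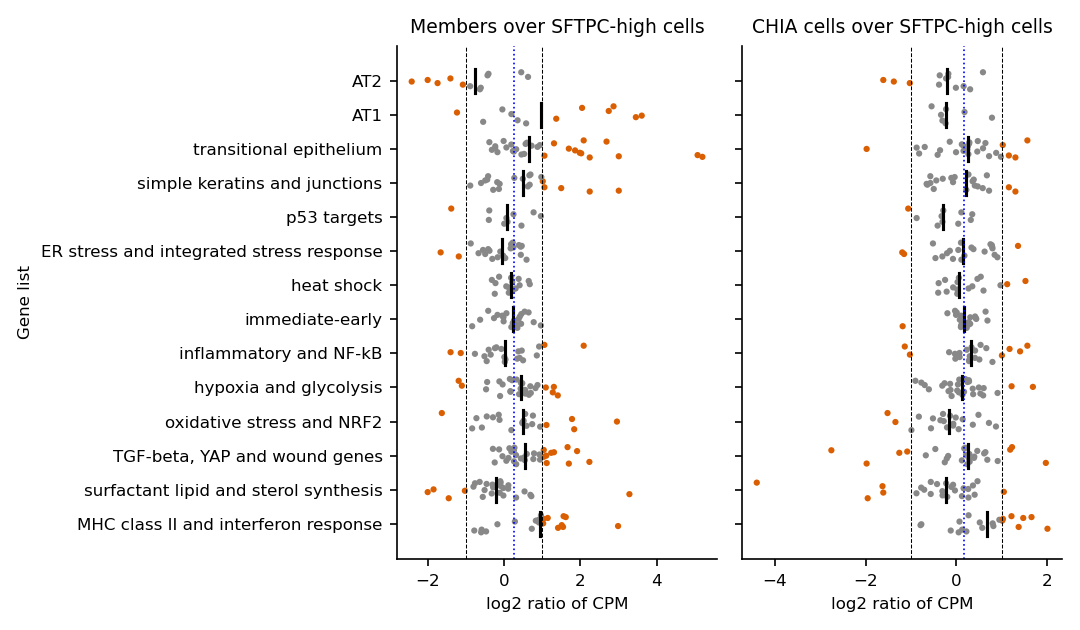
Log2 ratio of CPM over SFTPC-high cells for each tested gene of 14 lists (dots, 1 per gene, the 9 genes of the rule left out; orange, at least 2-fold), for all members (left) and for CHIA cells (right). Black ticks are list medians, dashed lines 2-fold, and the dotted blue line the median of all genes (0.26 and 0.17). The AT1 and transitional lists have orange dots far to the right for all members, while in CHIA cells no AT1 gene passes 2-fold and 4 transitional genes do.

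With SFTPC included, the CHIA cells held more AT2 transcripts than any other sub-cluster. The comparison that follows was added after the sub-clusters had been seen. The 13 listed AT2 markers, SFTPC of the rule included, summed to 44612 CPM in CHIA cells, 38150 CPM in COL3A1 cells, 27317 CPM in SRGN cells and 21389 CPM in SCGB3A2 cells. That ranking rests largely on SFTPC, a gene of the rule. The 12 markers outside the rule summed to 13341.5 CPM in CHIA cells and to slightly more in SCGB3A2 cells. Without SFTPC the SCGB3A2 cells thus ranked first. SFTPA1, the most abundant of them, was higher in SCGB3A2 cells than in CHIA cells. Outside the rule, 6 of 12 AT2 markers listed were at least 2-fold above other members in CHIA cells: ABCA3, SFTPB, NAPSA, SLC34A2, ETV5 and SFTPD. Of the 11 tested 5 were (45.5%), against 640 of all 7438 genes tested (8.60%). The 3 surfactant transcripts outside the rule lay near the SFTPC-high level. SFTPA1 was at 9618 CPM (9370 to 9870) in CHIA cells and 9662 CPM in SFTPC-high cells, SFTPB at 1077 and 870 CPM, and SFTPD at 1628 and 1453 CPM. SFTPC, by the rule, was at 31270 CPM in CHIA cells and 125563 CPM in SFTPC-high cells. CHIA itself, an acidic chitinase, was no more than a label: it was at 393 CPM in 103 of 210 CHIA cells and at 295 CPM in 38.9% of SFTPC-high cells. EPCAM was at 3584 against 3070 CPM. The part of free RNA and of mixed droplets in their SFTPC share was not tested.

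Of 6833 genes tested, 478 (7.00%) were at least 2-fold higher and 268 (3.92%) at least 2-fold lower in CHIA cells than in SFTPC-high cells. The median gene was 0.17 higher on the log2 scale, and with it subtracted the split turned to 297 higher and 367 lower, or 44.7% higher against 64.1%. Against the 2896 SFTPC-high cells that met every other limit, keratin included, 566 of 6759 genes (8.37%) were higher and 246 (3.64%) lower. The largest ratios were of low-level genes: STRA6, the receptor for retinol-binding protein (79.0 against 5.25 CPM, log2 ratio 3.91, 3.39 to 4.42; 31 of 210 cells), the defensin DEFB1 (79.0 against 5.82 CPM, 3.76, 3.25 to 4.26), of whose UMIs 5 cells held 55.3%, and the sulfotransferase CHST1 (67.2 against 5.39 CPM, 3.64). Better covered were CHI3L2, a chitinase-like protein (467 against 117 CPM, 2.00, 1.81 to 2.18; 51.0% of CHIA cells and 17.6% of SFTPC-high cells had a UMI), C15orf48, a mitochondrial protein induced by NF-kB (551 against 143 CPM, 1.94, 1.77 to 2.11), the adaptor NCK2 (410 against 124 CPM, 1.72) and TXNIP, the inhibitor of thioredoxin (948 against 294 CPM, 1.69, 1.56 to 1.82).

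Among lower genes KCNE5 led, at 20.2 CPM in 6 of 210 CHIA cells and 219 CPM in 26.9% of SFTPC-high cells (log2 ratio -3.44, -4.40 to -2.64). The aldo-keto reductase AKR1C8 was at 90.7 against 328 CPM (-1.85), TMEM213 at 33.6 against 138 CPM (-2.04) and the complement regulator CFI at 21.8 against 77.2 CPM (-1.82). The immune genes S100A8 (8.40 against 50.2 CPM, -2.58), S100A12 (-1.77) and PLEK (-2.05) were also among the 15 lowest. Without cells that held 2 or more UMIs of other cell types, in either group, S100A8 moved to -0.19, S100A12 to -0.57 and PLEK to -0.76, and 5 SFTPC-high cells held 44.8% of the S100A8 UMIs. That limit counts S100A8 and S100A12 among its own markers. Cells rich in them were thus left out by design, and their move is no test. PLEK is not among those markers, but whether it shares cells with them was not tested, so its move is no independent check. KCNE5, AKR1C8 and CFI were at -4.07, -1.82 and -2.32 under the same limit.

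Of 12 AT2 genes tested outside the rule, 3 were 2-fold lower in CHIA cells than in SFTPC-high cells and none was higher (median -0.20, against 0.17 over all genes). SLC34A2 was at 151 against 392 CPM (log2 ratio -1.38, -1.69 to -1.08), NAPSA at 497 against 1011 CPM (-1.02, -1.19 to -0.86) and LPCAT1 at 26.9 against 81.9 CPM (-1.61), while ABCA3, at 108 against 140 CPM (-0.38, -0.76 to -0.02), did not pass 2-fold. Of 25 surfactant lipid and sterol genes, 4 were lower, among them the fatty acid synthase FASN (11.8 against 45.5 CPM, -1.95, -3.27 to -0.90), and 1 was higher, PCYT1A, the rate-limiting enzyme of phosphatidylcholine synthesis (31.9 against 15.4 CPM, 1.05, 0.30 to 1.72). The lipid carriers FABP5 (815 against 1329 CPM, -0.71) and NPC2 (3033 against 4500 CPM, -0.57) did not pass 2-fold.

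Keratin and junction genes were higher in part. KRT18 and KRT8, which the rule used, were at 1279 against 587 CPM and 2176 against 1508 CPM. Outside the rule, CLDN4 was at 3198 against 1429 CPM (1.16, 1.09 to 1.23) and KRT7 at 158 against 63.9 CPM (1.31, 0.99 to 1.61), and KRT19 at 124 against 75.2 CPM (0.73). Of 27 transitional genes tested 4 were 2-fold higher, CLDN4, KRT7, the calcium-binding protein S100A6 (4466 against 2191 CPM, 1.03) and LCN2, an iron-scavenging defence protein (914 against 308 CPM, 1.57, 1.44 to 1.70), and 1 was lower, CCN2. That is 14.8% of the list higher, against 7.00% of all genes, and the list's median was 0.27 against 0.17 for all genes. CDKN1A (84.0 against 112 CPM), GDF15 (26.9 against 49.2 CPM), AREG, LGALS3 and VIM (25.2 against 60.1 CPM), all named in the transitional state of mice or humans, were below the SFTPC-high level. AREG and VIM rest on few UMIs in CHIA cells, and VIM was not on the transitional list. No AT1 gene of 7 tested passed 2-fold either way (median -0.23).

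Of 22 genes of ER stress and the integrated stress response, 1 was 2-fold higher in CHIA cells (4.55%, against 7.00% of all genes), HSP90B1, and 2 were lower, ASNS and SESN2 (median 0.15, against 0.17 over all genes). HSPA5 (BiP), the master ER chaperone, was at 7489 against 3987 CPM (0.91, 0.87 to 0.95), HSP90B1 (GRP94) at 1865 against 725 CPM (1.36, 1.27 to 1.45), CALR at 376 against 217 CPM (0.79), PDIA4 at 282 against 162 CPM (0.80), MANF at 544 against 322 CPM (0.76) and XBP1, the transcription factor of the unfolded protein response, at 155 against 85.9 CPM (0.85). In the integrated stress response branch, DDIT3 (CHOP) was at 77.3 against 106 CPM (-0.46), ATF4 at 3330 against 3498 CPM (-0.07) and ASNS at 38.6 against 85.7 CPM (-1.15). A few cells weighed on the sums, since 5 of 210 cells held 16.8% of HSPA5 and 32.3% of HSP90B1 UMIs. The per-cell medians were 4442 CPM in CHIA cells and 2389 CPM in SFTPC-high cells for HSPA5.

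Other stress and defence genes gave a mixed picture. SOD2, the mitochondrial superoxide dismutase induced by NF-kB, was at 2557 against 1131 CPM (1.18, 1.10 to 1.25), NFKBIA at 15822 against 9087 CPM (0.80), CSF1 at 378 against 142 CPM (1.41), CXCL8 at 796 against 396 CPM (1.01) and the protease inhibitor TIMP1 at 697 against 305 CPM (1.19). CXCL2 (7007 against 5701 CPM, 0.30), CCL2 (5906 against 6019 CPM, -0.03) and ATF3 (455 against 421 CPM, 0.11) differed little. Of 20 interferon and MHC genes 7 were higher and none lower (median 0.69), among them PSMB9 (161 against 51.0 CPM, 1.66), PSMB8 (145 against 51.8 CPM, 1.48), the peptide transporter TAP1 (134 against 57.7 CPM, 1.22) and MX1 (1.38). The peroxisomal enzyme CAT was lower (58.8 against 168 CPM, -1.51). Of 10 p53 targets none was higher. Of 17 heat shock genes 2 were (11.8%, against 7.00% of all genes), CRYAB (267 against 92.7 CPM, 1.53) and DNAJB4 (1.13).

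These differences ran on within the SFTPC-high cells. Cells were ordered by SFTPC share, with CHIA cells at 1 to 2.5% (62 cells) and 2.5 to 5% (133 cells), then SFTPC-high cells meeting all other limits at 5 to 10% (812 cells), 10 to 20% (1881 cells) and 20% or more (203 cells). The 15 CHIA cells under 1% were left out, as strata under 20 cells; the 12 of them at 0.5 to 1% had HSPA5 at 11402 CPM, HSP90B1 at 3303 CPM, CLDN4 at 5790 CPM and LCN2 at 1314 CPM, and the 3 below had HSPA5 at 688 CPM, from 4 UMIs. HSPA5 was at 9243, 6510, 4642, 3530 and 2891 CPM along that order. HSP90B1 was at 2649, 1427, 880, 665 and 432 CPM, CLDN4 at 3814, 2715, 1584, 1267 and 1244 CPM, and LCN2 at 1090, 785, 432, 229 and 194 CPM. SLC34A2 ran the other way, at 85.6, 192, 270, 412 and 702 CPM, as did NAPSA (354, 585, 864, 1075 and 1271 CPM). KCNE5 had 0 UMIs in the first step, which allows up to 17.1 CPM, and stood at 31.1, 120, 268 and 393 CPM in the others. SFTPA1 showed no such order (10990, 9184, 9911, 10208 and 9240 CPM). SFTPC itself enters the total, but with SFTPC left out of it HSPA5 was at 9410, 6778, 5039, 4103 and 3717 CPM. The order is a description: the CHIA cells were drawn by clustering, the SFTPC-high cells were not.

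**Figure D4:**
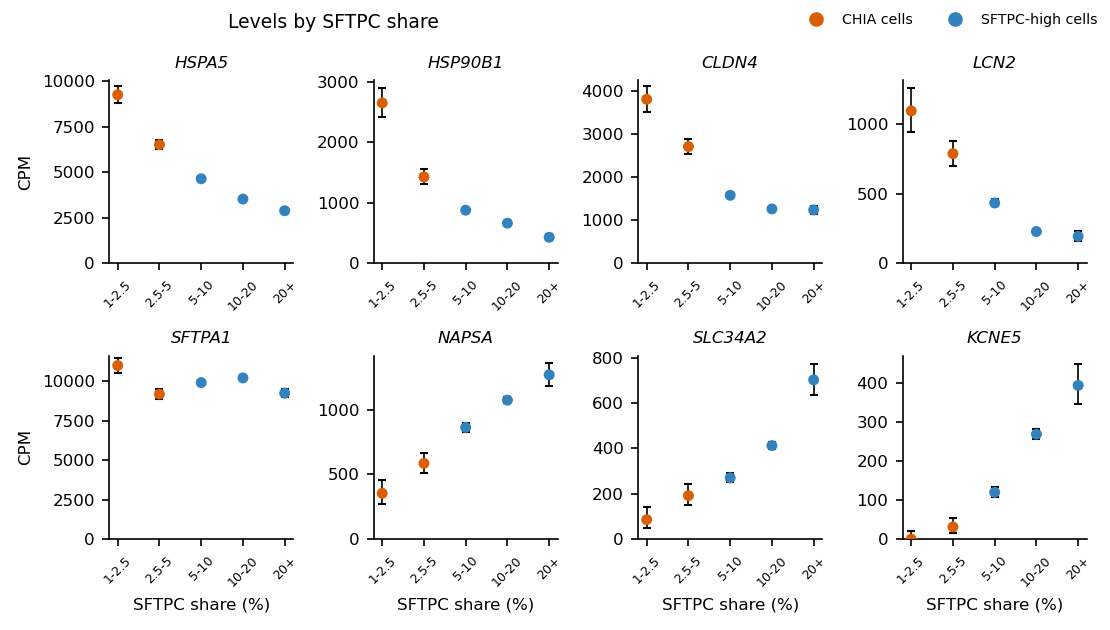
Levels (CPM of summed UMIs, linear axes from 0; bars, exact Poisson 95% intervals) of 8 genes by SFTPC share of the cell (x axis, %), for CHIA cells (orange) and for SFTPC-high cells that meet all other limits (blue). Of the strata shown, HSPA5, HSP90B1, CLDN4 and LCN2 are highest at 1 to 2.5% SFTPC, NAPSA, SLC34A2 and KCNE5 are highest at 20% or more, and SFTPA1 lies between 9184 and 10990 CPM throughout.

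In the other libraries the rule found few cells: 17, 19 and 17 in control replicates 1, 2 and 3 (0.343, 0.290 and 0.267% of cells with 1000 UMIs or more) and 0 in both CD45+ libraries. SFTPC-high cells numbered 5, 7 and 3 in the controls. The 53 control cells held no KRT5, KRT17 or IL25 UMI, and their make-up differed between libraries. Replicates 1 and 2 held SCGB3A2 at 3398 and 2290 CPM and EPCAM in 7 of 17 and 6 of 19 cells, whereas replicate 3 held no EPCAM, SCGB3A2, SFTPC, SFTPA1 or SFTPB UMI. UPK3B and WT1, markers of the mesothelium that covers the lung, were present in all 3 (UPK3B at 127, 88.4 and 214 CPM). Sort, transplantation and injury cannot be told apart between these libraries, so whether the graft cells differ from uninjured counterparts was not tested. No mitochondrial gene is listed in the graft tables, so the mitochondrial share, a usual sign of damaged cells, was not analysed here.

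SFTPC lies on pig chromosome 14 (6440309 to 6443104, RefSeq annotation of Sscrofa11.1), KRT8 (18172423 to 18180277), KRT18 (18217686 to 18221432) and KRT5 (17862047 to 17868397) on chromosome 5, and HSPA5 on chromosome 1 (265930044 to 265934959).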

How the data were processed

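Single cells of domestic pig lung were profiled in 6 libraries (1 CD45- and 2 CD45+ graft libraries, 3 controls), with 19098567 to 40647380 UMIs each. The values are UMI counts per gene and cell as deposited by the authors, made with PISA per the file headers. Per the submitters' processing notes the build was Sscrofa11.1 and Seurat 5.5.3 with R 4.2.2 was used (aligner and gene annotation: not given in the sources used here). Control tables hold no cell under 1001 UMIs, graft tables do. Cell names are running numbers, so the 2597 to 4924 names that the CD45- library shares with the others cannot be read as shared barcodes.

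Counts were summed over cells and scaled to CPM with exact Poisson intervals; ratios carry exact conditional binomial intervals. All intervals are at 95% and cover counting error only. Genes with a mean of 10 CPM or more were compared, 2-fold was the call, and a count of 0 was read against a floor of 3 counts. A sub-cluster was set against the other members in the same way, a call needing also 10 CPM and 3 UMIs in the sub-cluster. The ratio code was tested on simulated data. Members were clustered on 2000 variable genes (20 components, 15 neighbours, Leiden resolution 0.5). Scrublet called no cell of the library and was taken not to have worked; leaving out the top 6% of scores was an alternative. Endothelial cells (2 or more UMIs of PECAM1 and CDH5, no PTPRC) and immune cells (2 or more UMIs of PTPRC), both without KRT8 or KRT18, served as background. Named genes were the 15 largest ratios each way at 50 CPM or more, up to 4 per list, a fixed panel and the 10 leading genes of each sub-cluster; others were chosen after their values were seen. Members and lists were chosen with earlier results of these data known, and the comparison of CHIA cells was added after seeing the sub-clusters. Clustering ran in scanpy 1.11.5 with igraph 0.11.9, and intervals came from scipy 1.17.1 under Python 3.11.15 (pandas 2.3.3, numpy 2.4.6).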

Additional observations from a re-analysis of the deposited data

How the results depend on the processing

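No paired analysis was possible because members and SFTPC-high cells come from a single library, and for the same reason no replicate could be left out. Members numbered 344 with a keratin limit of 8 UMIs, 355 with SFTPC under 1%, 416 with 2000 or more UMIs, 386 without cells holding 2 or more UMIs of other cell types and 210 for CHIA cells alone. Genes 2-fold higher and lower in members, 794 and 182, were 1297 and 473 with SFTPC under 1%, 5603 and 908 with no filter on low values and 169 and 69 at 50 CPM or more. Higher genes were 478 for CHIA cells alone, and lower genes were 374 for the other members, 286 with the rule and surfactant genes out of the total and 340 less the median of all genes. The higher share of the calls, 81.4%, was 68.8% with those genes out of the total, 64.1% for CHIA cells alone and 71.0% at 50 CPM or more. In CHIA cells, 478 higher and 268 lower genes became 920 and 469 after thinning to 1000 UMIs and 87 and 37 at 50 CPM or more; lower genes were 414 with the rule and surfactant genes out of the total, and higher genes 297 less the median. In CHIA cells alone the log2 ratio turned negative for ALOX5 (-0.18), HSD17B2 (-1.35), AQP5 (-1.26), LGALS3 (-0.82), AREG (-3.14), VIM (-1.25) and SCGB3A1 (-1.55); of these, ALOX5, HSD17B2 and AREG rest on 1 UMI each and AQP5 on 2 in CHIA cells, under the floor of 3 counts, and LGALS3 on 94, VIM on 15 and SCGB3A1 on 16. The cause was not tested. Resolution 1.0 gave 9 sub-clusters: CHIA cells split into 120 and 90, and SCGB3A2 cells into 30 and 100. Without the rule genes there were 7, with 225 CHIA cells (209 shared), 149 SCGB3A2 cells (129 shared) and 18 COL3A1 cells. All alternatives for CHIA cells were added after seeing the data. Intervals widen in the sub-clusters of 46 to 69 cells, where single cells carried some genes.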
